A study of Mus musculus with 12 samples.

Results

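The p200 family, also called the Ifi200 or PYHIN family, is a row of interferon-inducible genes on mouse chromosome 1. Its genes Aim2, Ifi204, Ifi205, Ifi203, Mndal, Ifi209 and Ifi208 were chosen by name, and all 7 are on the array, among 23279 genes with a symbol and 24479 features in all. The members belong to 1 uninterrupted block: each of the 13 array genes from Aim2 to Ifi205 in chromosome order carries a p200 family name, and 6 of them (Ifi214, Ifi213, Ifi207, Ifi203-ps, Ifi211 and Ifi202b) are not among the 7. RNA was measured on 12 single-colour arrays of monocytes, the phagocyte precursors that circulate in blood, sorted as CD11b+ CD115+ cells with high Ly6C. Of these, 6 were labelled TRIM33, from mice in which the gene for the chromatin-binding SMAD cofactor TRIM33 was targeted, and 6 were labelled WT. All 12 came from mice of 6 to 8 weeks with the strain label C57BL/6 LyzCre, which stands for Cre recombinase expressed under lysozyme control in the myeloid lineage, so recombination is not limited to the sorted cells, and the labels do not say whether WT mice carried it. The titles call 2 TRIM33 and 2 WT arrays mixes. The labels do not tie arrays to single animals, so p-values here reflect array-to-array spread, part of which may be technical.

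Trim33 itself followed the labels, with a median of 6.11 on the log2 scale (6.06 to 6.23) on TRIM33 arrays and 6.92 (6.81 to 7.05) on WT arrays, a fall of 0.79 (SE 0.0671; limma, Benjamini-Hochberg adjusted p = 0.000637). Array medians lay between 4.16 and 4.25. Clustering split the 12 arrays into 2 sets of 6, with 3 arrays of either genotype in both, and with pairwise correlations of 0.986 to 0.992 inside a set and of 0.955 to 0.967 across them. In one set, called the Y set here, Xist read 3.36 to 3.64 and the Y-linked Eif2s3y 8.09 to 8.47; in the other, the Xist set, Xist read 9.01 to 10.2 and Eif2s3y 2.19 to 2.89. The cell cycle list averaged 4.70 to 5.71 on Y set arrays and 9.35 to 9.44 on Xist set arrays. TRIM33 replicates 1 to 3 and WT replicates 4 to 6 form the Y set, and the mixes (TRIM33 replicates 2 and 3, WT replicates 5 and 6) all lie in it. The sorted antigen's gene Ly6c2 read 12.3 to 12.5 on Y set arrays and 12.2 to 12.4 on Xist set arrays.

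As background, many p200 proteins combine an N-terminal pyrin domain, which joins to other pyrin domains, with a HIN domain that binds DNA. Not every protein of the family carries both domains. Most genes of the family are switched on by type I interferon. AIM2 binds double-stranded DNA in the cytosol and assembles an inflammasome with the adaptor ASC (gene Pycard) and caspase-1, which matures interleukin-1 beta and interleukin-18. The p204 protein, encoded by Ifi204, is regarded as a mouse counterpart of human IFI16 and acts upstream of STING, the adaptor that leads to interferon production. In monocytes and macrophages the family is known for DNA sensing and for roles in differentiation and growth control.

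Several promoters of these genes hold an interferon-response-type motif. Whether the motif bears on the array values was not tested. RefSeq promoter windows of 300 bases (mostly upstream of each annotated start, build GRCm38.p6) were found for 6 of the 7 genes. Ifi204 had no match. The motif searched was GAAA, any 2 bases, GAAA, on both strands, so that a hit on the other strand reads TTTC, any 2 bases, TTTC. It was present for 4 of the 6 matched genes (Mndal, Ifi203, Ifi208 and Ifi205) and for 9 of the 12 matched genes of the whole cluster, against 3.44% of all 32851 promoter windows and 3.99% of 27025 genes. In the list of interferon-stimulated genes described below it was present for 11 of 22 matched genes. The stretches of 30 bases around it are given 5′ to 3′ on the gene's strand with the motif in capitals, followed by the letters at the same place in the related promoter of Ifi209.
Mndal, start 1, chr1:173880204-173880233, minus strand: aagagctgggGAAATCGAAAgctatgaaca
Ifi203, start 2, chr1:173942508-173942537, minus strand: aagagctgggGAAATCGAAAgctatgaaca
Ifi208, chr1:173673597-173673626, plus strand: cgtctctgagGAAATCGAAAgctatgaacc
Ifi205, chr1:174031870-174031899, minus strand: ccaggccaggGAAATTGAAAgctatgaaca
Ifi209, chr1:173630770-173630799, plus strand: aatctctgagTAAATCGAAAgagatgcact

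With positions counted from 1 at the first capital and Mndal first, the Ifi205 element carried C6T and the Ifi209 letters carried G1T, so that Ifi209 held no full match in this window. The element began at -36 from the start site in Mndal, -35 at the second annotated start of Ifi203, -58 in Ifi208 and -134 in Ifi205, with the start base as 0. Mndal and Ifi203 each have a second annotated start: at the second start of Mndal the motif lay on the other strand at -54, and at the first start of Ifi203 it was not found. The motif without its last letter, which overlaps every full match, was found for the same number of the 6 genes (4) and in 8.56% of all windows. Several of these promoters are close copies of each other. The Mndal window (start 1) and the Ifi203 window (start 2) were identical at 282 of 299 aligned positions (94.3%), and those of Ifi208 and Ifi213 at 282 of 285 (98.9%), so their hits are not independent of each other. Full windows are shown for Mndal, as an example of the shared form, for Ifi205, which holds 2 matches, and for Aim2, in which these letters were not found; motifs are in capitals.
Mndal, start 1, chr1:173880138-173880437, minus strand: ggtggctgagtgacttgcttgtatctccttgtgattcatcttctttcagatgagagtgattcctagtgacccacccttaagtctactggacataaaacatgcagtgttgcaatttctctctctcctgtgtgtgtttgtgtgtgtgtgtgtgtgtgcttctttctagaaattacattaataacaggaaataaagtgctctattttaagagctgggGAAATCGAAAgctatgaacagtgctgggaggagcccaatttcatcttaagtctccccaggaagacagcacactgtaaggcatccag
Ifi205, chr1:174031706-174032005, minus strand: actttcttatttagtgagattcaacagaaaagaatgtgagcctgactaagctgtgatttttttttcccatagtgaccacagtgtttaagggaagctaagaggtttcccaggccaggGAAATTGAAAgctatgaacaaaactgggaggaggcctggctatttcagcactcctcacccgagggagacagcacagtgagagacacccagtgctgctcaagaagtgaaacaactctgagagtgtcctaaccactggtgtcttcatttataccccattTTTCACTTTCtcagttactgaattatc
Aim2, chr1:173420354-173420653, plus strand: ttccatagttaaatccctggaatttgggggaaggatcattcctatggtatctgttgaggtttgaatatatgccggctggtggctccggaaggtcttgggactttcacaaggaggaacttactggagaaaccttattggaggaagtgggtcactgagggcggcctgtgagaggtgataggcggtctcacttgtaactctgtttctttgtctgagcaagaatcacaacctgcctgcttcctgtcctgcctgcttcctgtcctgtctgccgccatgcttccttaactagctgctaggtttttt

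**Figure D1:**
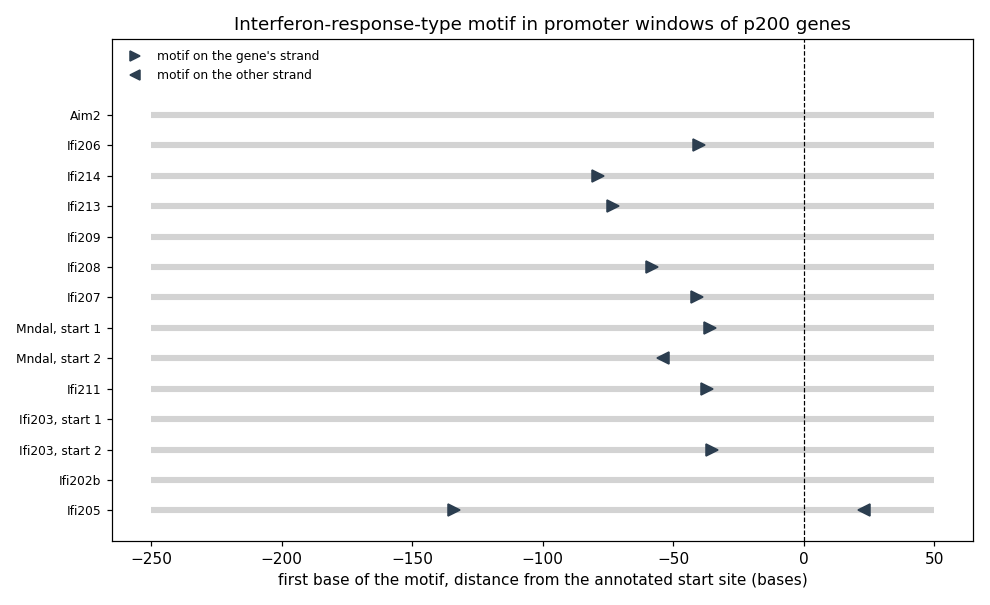
Promoter windows of 12 p200 genes in chromosome order (rows; Mndal and Ifi203 have 2 annotated starts each), with the distance in bases from the start site on the x axis and an arrowhead at the first base of each match to the motif. Most matches lie upstream of the start site, among them -36 in Mndal and -58 in Ifi208; Aim2, Ifi209 and Ifi202b have none.

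A pair of patterns ran through the family. All 7 genes averaged higher in the Y set than in the Xist set, and within a set most of them averaged higher on TRIM33 than on WT arrays. In 6 of the 7 the means of the 4 groups fell in the same order. TRIM33 in the Y set was highest, then WT in the Y set, TRIM33 in the Xist set and WT in the Xist set. In Ifi205 the first 2 of these were exchanged. The share of all genes with this order was not counted. The sets were found by clustering all features, these genes included, so differences between sets are given as a description with no test. For 5 of the 7 genes every Y set array lay above every Xist set array, the exceptions being Aim2 and Ifi209, against 6.59% of all genes higher in the Y set without overlap, and 0 of 7 were lower without overlap (7.45% of all genes). A difference of 1 or more, higher in the Y set, was found for 3 of the 7 (Ifi208, Ifi205 and Ifi204), against 1.86% of all genes. The median difference between sets over the 7 genes was 0.87 on the log2 scale, against -0.0015 over all genes. The sets also differ in the sex-linked genes above. They differ as well in the list medians of cell cycle genes, granule and precursor genes, and Ly6C-low and dendritic cell markers. The arrays titled as mixes all lie in the Y set as well. Which of these differences the family's levels follow cannot be told apart here. On bulk arrays fewer cells of a type and less RNA per cell cannot be told apart either.

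**Figure D2:**
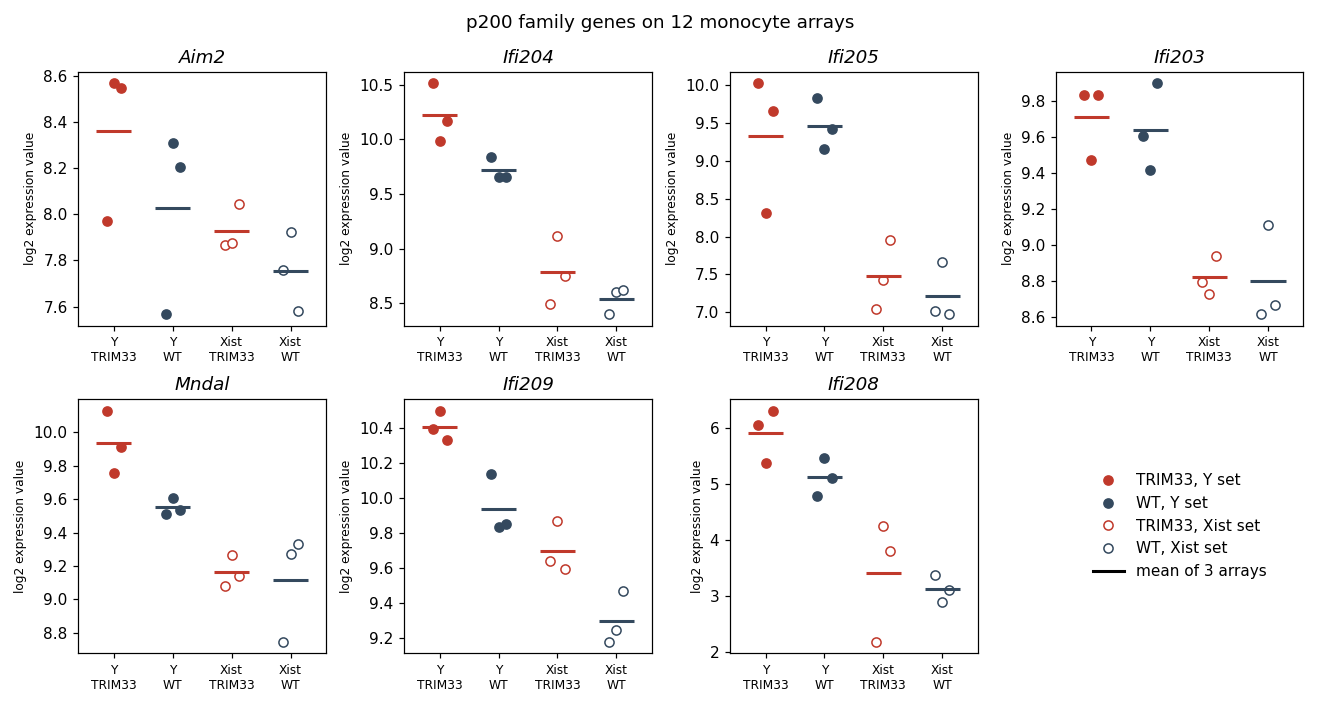
Log2 expression value (y axis, its own scale for each gene) of the 7 p200 genes on 12 arrays, as points for single arrays and bars for the mean of 3, with TRIM33 left of WT and the Y set left of the Xist set. Ifi204, Ifi209 and Mndal separate the genotypes in the Y set, and Ifi205 and Ifi208 show the widest gap between sets (2.05 and 2.25 on the log2 scale).

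Aim2, the inflammasome sensor, differed least between sets, by 0.35 on the log2 scale. In the Y set it read 7.97, 8.57 and 8.55 on TRIM33 arrays and 7.57, 8.31 and 8.21 on WT arrays. In the Xist set it read 7.87, 7.87 and 8.04 on TRIM33 arrays and 7.76, 7.92 and 7.58 on WT arrays. The genotypes overlapped in both sets. The difference of TRIM33 minus WT was 0.25 (95% interval -0.04 to 0.55 with the array set as a block, a fit that compares genotypes within sets), and it did not pass the test (limma adjusted p = 0.937). Without WT replicate 4 it was 0.14 (SE 0.117; limma adjusted p = 0.916).

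Ifi204, the counterpart of human IFI16, stood 1.31 higher in the Y set than in the Xist set, a 2.47-fold difference. On Y set arrays it read 10.51, 9.98 and 10.17 in TRIM33 monocytes and 9.84, 9.66 and 9.66 in WT monocytes, with no overlap. On Xist set arrays the TRIM33 values were 8.50, 9.11 and 8.75 and the WT values 8.40, 8.60 and 8.62, which overlapped. The genotype difference was 0.37 (SE 0.120 with the block, 95% interval 0.12 to 0.63), or 1.30-fold. Its unadjusted p was 0.00719 in that fit and it did not pass over all genes (limma adjusted p = 0.719).

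Ifi205, whose product has been reported in mouse macrophages to regulate the ASC gene, showed a difference of 2.05 between the sets, 4.14-fold. TRIM33 arrays of the Y set read 10.02, 8.31 and 9.66, and WT arrays of that set 9.83, 9.15 and 9.41. TRIM33 replicate 2, at 8.31, was the lowest Y set array. TRIM33 arrays of the Xist set read 7.04, 7.42 and 7.96, and WT arrays 7.01, 7.66 and 6.97. The genotypes overlapped in both sets and the difference of TRIM33 minus WT was 0.06 (95% interval -0.49 to 0.61 with the block; limma adjusted p = 0.994). Within the Y set it was -0.14 (SE 0.403) with all 6 arrays and 0.37 (SE 0.223) without TRIM33 replicate 2, so 1 array decided its sign there.

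Ifi203 and Mndal have closely similar promoters, as shown above. Ifi203 read 9.84, 9.47 and 9.83 on TRIM33 arrays and 9.61, 9.42 and 9.90 on WT arrays of the Y set. In the Xist set it read 8.79, 8.73 and 8.94 on TRIM33 arrays and 8.61, 9.11 and 8.67 on WT arrays. Genotypes overlapped in both, and the difference was 0.05 (95% interval -0.20 to 0.29 with the block). Mndal, named for its likeness to human MNDA, read 10.13, 9.76 and 9.92 on TRIM33 arrays and 9.51, 9.61 and 9.53 on WT arrays of the Y set, without overlap. In the Xist set Mndal read 9.08, 9.26 and 9.14 on TRIM33 arrays and 8.75, 9.27 and 9.33 on WT arrays, with overlap. Its difference was 0.21 over all arrays (95% interval -0.03 to 0.46 with the block), 0.38 (SE 0.129) on Y set arrays and 0.05 (SE 0.170) on Xist set arrays. Neither gene passed (limma adjusted p = 0.987 for Ifi203 and 0.937 for Mndal), and whether the 2 genes differ from each other in their response was not tested. Probes may not tell close copies apart, which holds for the whole cluster and was not tested. The likeness shown above is of promoter windows, not of the probed transcripts.

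Ifi209, also known as Pyhin1, was the 1 member in which the genotypes did not overlap in either set. Its TRIM33 values were 10.39, 10.50 and 10.34 in the Y set, against WT values of 10.14, 9.83 and 9.85. In the Xist set its TRIM33 values were 9.64, 9.87 and 9.59, against WT values of 9.18, 9.24 and 9.47. No array of one genotype overlapped the other within either set, which holds for 0.412% of all genes (96) in the direction of higher TRIM33. The difference was 0.44 on the log2 scale, 1.35-fold (SE 0.0903 with the block, 95% interval 0.24 to 0.63), with 0.47 on Y set arrays and 0.40 on Xist set arrays. Its unadjusted p was 0.000248 with the block, and it did not pass over all genes (limma adjusted p = 0.226 in the blocked fit).

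Ifi208, also known as Pydc3, had the widest gap of the 7 between sets, 2.25 or 4.74-fold. In the Y set it read 6.06, 5.38 and 6.31 on TRIM33 arrays and 4.79, 5.47 and 5.11 on WT arrays, with 1 TRIM33 array inside the WT range. In the Xist set it read 2.19, 4.26 and 3.81 on TRIM33 arrays and 3.37, 2.90 and 3.10 on WT arrays. TRIM33 replicate 4, at 2.19, was the lowest of all 12 arrays. The Xist set values of Ifi208 averaged 3.27, below the median of all gene means (4.24). Its gap between sets and its genotype difference in the Xist set therefore rest on low readings. The genotype difference was 0.54 (SE 0.286, 95% interval -0.07 to 1.16 with the block; limma adjusted p = 0.937). Without TRIM33 replicate 4 it was 0.84 (SE 0.175; limma adjusted p = 0.264).

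Over the family, 0 of the 7 genes passed limma over all genes without the array set as a block (0.0215% of all genes did, 0.0172% as higher in TRIM33) and 0 of 7 passed with it (0.0387%, and 0.0344% as higher). At an unadjusted p under 0.05, limma without the block found 0 of the 7 (3.07% of all genes, 1.27% as higher), and with the block it found 2 of the 7 higher in TRIM33, Ifi209 and Ifi204, against 2.44% of all genes higher and 5.28% in either direction. Within the Y set 4 of the 7 were higher at that level (Ifi209, Ifi204, Ifi208 and Mndal; 2.2% of all genes), and within the Xist set 1 of the 7 was (Ifi209; 2.38%). After adjustment 0 of the 7 passed limma within the Y set (0.0344% of all genes) and 0 within the Xist set (0.0129%). The difference lay above 0 in 7 of 7 genes, as it did in 45% of all genes, and in both sets in 6 of 7 genes, against 22.2%. The members are not independent of each other, since they were read on the same arrays. Probes may also fail to tell close copies apart. The median difference over the 7 was 0.25, with 0.38 on Y set arrays and 0.25 on Xist set arrays, against -0.01, -0.01 and -0.02 over all genes. TRIM33 arrays without overlap above WT arrays were found for 3 of the 7 genes in the Y set (4.61% of all genes) and for 1 in the Xist set (4.41%), and over all 12 arrays for 0 of the 7 (0.103%). Whether the genotype difference itself differs between sets was tested by an interaction term: 0 of the 7 passed (0.0043% of all genes), and 0 had an unadjusted p under 0.05 (4.21%). The intervals of that difference were wide, -0.33 to 0.47 for Ifi209 and -1.53 to 0.74 for Ifi205.

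**Figure D3:**
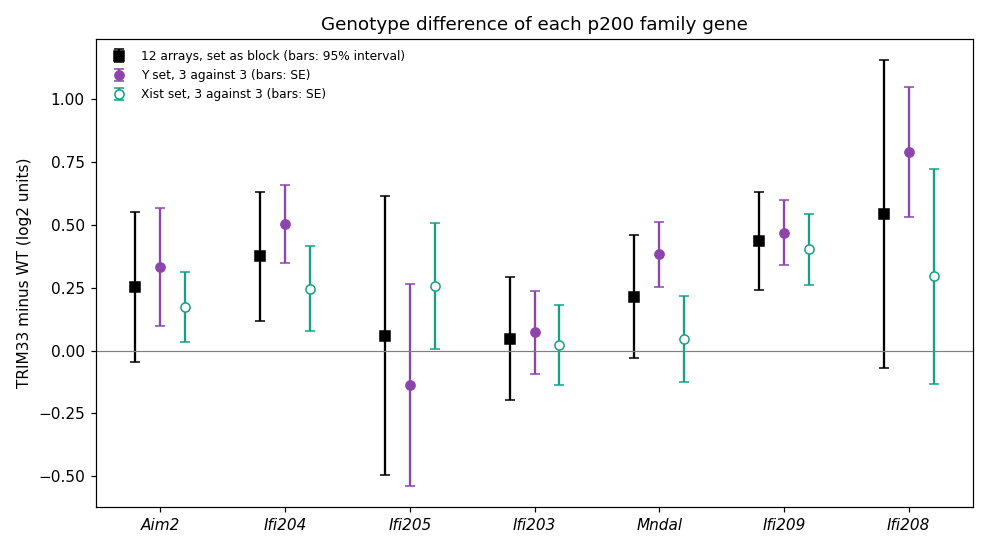
TRIM33 minus WT in log2 units (y axis) for each of the 7 p200 genes, over 12 arrays with the array set as a block (squares, bars for the 95% interval) and within each set (circles, bars for the SE; 3 arrays against 3). The 95% interval lies above 0 for Ifi209 (0.24 to 0.63) and Ifi204 (0.12 to 0.63) and spans 0 for the other 5.

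Other genes of the cluster are given by position. Ifi213, next to Ifi209, had the largest genotype difference in the cluster, 0.64 (SE 0.217 with the block; limma adjusted p = 0.769). It read 8.76, 8.22 and 8.46 on TRIM33 arrays and 7.83, 7.35 and 7.79 on WT arrays of the Y set, without overlap, and 6.15, 6.85 and 6.23 on TRIM33 arrays against 5.32, 6.80 and 5.79 on WT arrays of the Xist set, with overlap. Ifi211 differed by 0.16 (SE 0.0869) and Ifi207 by 0.03 (SE 0.106), although Ifi207 stood 1.11 higher in the Y set than in the Xist set. The pseudogene Ifi203-ps differed by 0.65 within the Y set and by -0.22 within the Xist set, and Ifi214 by -0.30 and 0.56. Their interaction terms had an unadjusted p of 0.0458 and 0.00993 and an adjusted p of 0.996, and both genes had low values (2.23 to 4.38 for Ifi203-ps and 1.64 to 2.76 for Ifi214). Ifi202b, which is known to be little expressed in C57BL/6 mice, read 1.83 to 2.59 on all 12 arrays. No gene of the cluster passed limma (0 of 6 here, with or without the block), and 1 of the 6, Ifi213, reached an unadjusted p under 0.05 in the blocked fit (2.44% of all genes did as higher in TRIM33, 5.28% in either direction).

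Outside the cluster, Fcer1a, Mptx2, Ackr1 and Cadm3 on one side averaged 2.14 to 3.92 and differed by -0.09 to 0.12 between genotypes. The other 6 of the 10 nearest genes were olfactory receptors, which averaged 2.37 to 3.86 and differed by -0.31 to 0.12. None of the 10 passed limma with or without the block, where the background is as given above.

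**Figure D4:**
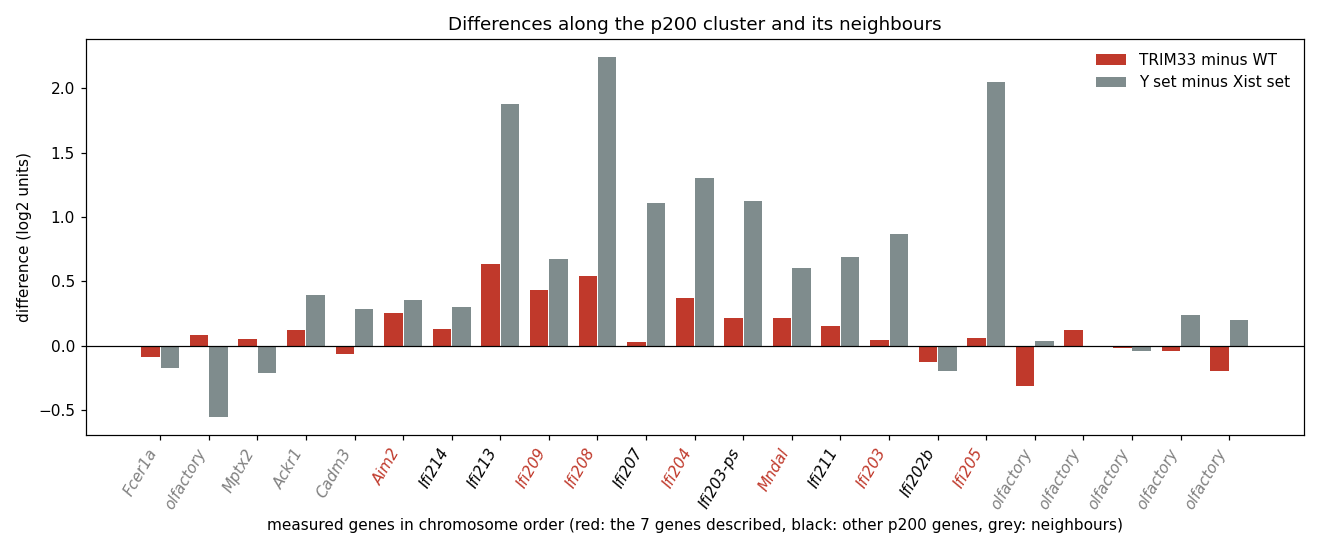
Differences in log2 units (y axis) for measured genes in chromosome order, as bars for TRIM33 minus WT and for Y set minus Xist set, with 12 arrays behind each bar. Between sets Ifi208 (2.25), Ifi205 (2.05) and Ifi213 (1.88) have the tallest bars. Ifi202b (-0.20), Fcer1a (-0.17), Mptx2 (-0.22) and some of the olfactory receptor genes (lowest -0.55) lie below 0.

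The members followed each other across arrays to different degrees. Over all 12 arrays Pearson's r between the 15 pairs of members without Aim2 was 0.73 to 0.95, and between Aim2 and the others 0.39 to 0.63. After each gene was centred on its set means, which removes the gap between sets, r was -0.03 to 0.80 for the 15 pairs and -0.32 to 0.35 for Aim2. The closest pairs were then Mndal with Ifi204 (0.80), Ifi209 with Ifi204 (0.78) and Ifi208 with Ifi204 (0.71), while Ifi203 went with Ifi205 (0.68). Such values still hold the genotype difference. With the means of genotype within set taken off instead, the closest pair was Ifi203 with Ifi205 (0.71). Mndal with Ifi204 then had 0.67, Ifi208 with Ifi204 0.59 and Ifi209 with Ifi204 0.47. For Aim2 with the others r was then -0.57 to 0.14. These are descriptions over 12 arrays that share their normalization.

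Genes whose pattern was most like the members' were sought by Pearson's r with the mean of the 7 genes over 12 arrays after set means were taken off, among the 10895 brighter named genes, those whose mean exceeded the middle value. The nearest was Ifit2 (r = 0.93), an interferon-induced protein that binds viral RNA, followed by Oasl1 (0.90), Bst2 (0.90), which tethers budding viruses, Oasl2 (0.89) and Herc6 (0.87), a ligase for ISG15. Rps24, a ribosomal protein gene (0.84), Caskin1 (0.83) and Lbhd2 (0.83) completed the first 8. At the other end stood Miip (-0.89), Cxxc1 (-0.88) and Alg8 (-0.85). With Spearman's rho 4 of the 8 were the same genes and without the filter 5 were. Of the rest of the cluster Ifi213 had r = 0.78, Ifi211 0.63 and Ifi207 0.48. Trim33 had r = -0.59, which largely restates the genotype difference of the members, since its values follow the genotype labels.

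The list of interferon-stimulated genes holds no p200 gene. All 26 measured genes lay above 0 in TRIM33 minus WT (45% of all genes did), with a median of 0.24, and 0 passed limma in either fit; 15 were higher in TRIM33 at an unadjusted p under 0.05 in the blocked fit, against 2.44% of all genes. Isg15, a ubiquitin-like modifier, differed by 0.57 (SE 0.107 with the block; limma adjusted p = 0.116) and Oasl1 by 0.61 (SE 0.131; 0.267). Their median between sets was 0.96, beside 0.87 for the p200 genes, and 21 of 26 were higher in the Y set without overlap, against 6.59% of all genes. The mean of the 26 and the mean of the 7, each after its set means, had r = 0.89 over 12 arrays, and 0.81 after the means of genotype within set were taken off as well. TRIM33 replicates 2 and 4 had p200 means below their set's (-0.10 and -0.21), while 4 TRIM33 arrays stood above it by 0.24 to 0.32 and 5 of the 6 WT arrays stood below it. Not all members were low on these 2 arrays. Replicate 2 had Ifi205 at 8.31 (Y set mean 9.40) but the highest Ifi209 (10.50) and Aim2 (8.57) of its set. Replicate 4 had Ifi208 at 2.19 (Xist set mean 3.27), while Ifi209 (9.64) and Aim2 (7.87) lay above their set means (9.50 and 7.84).

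**Figure D5:**
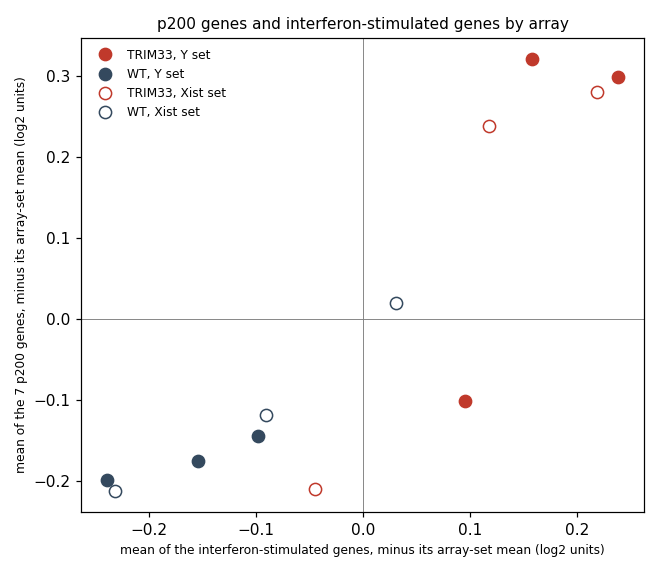
Mean of the 7 p200 genes (y axis) against the mean of 26 interferon-stimulated genes (x axis) on each of 12 arrays, both in log2 units after the array-set mean was taken off. TRIM33 arrays lie to the upper right apart from replicates 2 and 4 (-0.10 and -0.21 on the y axis), and WT arrays lie to the lower left apart from replicate 2 (0.02).

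Lists of genes that act with these sensors had medians near that of all genes between genotypes. In the AIM2 inflammasome and pyroptosis list 7 of 17 measured genes lay above 0 and 10 below (median -0.03); 0 passed limma in either fit. Naip2 and Naip5, which sense bacterial proteins for another inflammasome, had the smallest p, at -0.25 (SE 0.0738 with the block; limma adjusted p = 0.645) and -0.42 (SE 0.163; 0.851). Of AIM2's own partners Pycard differed by 0.07 (SE 0.0839), Casp1 by 0.16 (SE 0.101), Il18 by 0.30 (SE 0.142) and Il1b by -0.07 (SE 0.261). Between sets Pycard ran the other way from Aim2, at -0.47, while Il1b stood 2.48 and Il18 1.65 higher in the Y set.

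The cytosolic DNA sensing list had 11 of 24 genes above 0 (median -0.02) and 0 past limma in either fit. Its smallest p belonged to Zbp1, a nucleic acid sensor (0.31, SE 0.0907 with the block; limma adjusted p = 0.625), and Irf7, a factor that amplifies interferon production (0.34, SE 0.113; 0.727), which are themselves interferon-induced. The DNA sensor gene Cgas differed by -0.06 (SE 0.135) and the adaptor gene Sting1 by -0.01 (SE 0.0960). Of nucleic acid clearance genes 6 of 13 lay above 0 (median -0.01), with Rnaseh2b, a subunit of ribonuclease H2, at 0.47 (SE 0.120; limma adjusted p = 0.471) and Pld3, an exonuclease, at -0.19 (SE 0.104; 0.937).

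Of 16 measured interferon genes 7 lay above 0 (median -0.0046), with Ifnz at 0.33 (SE 0.129 with the block; limma adjusted p = 0.866), Ifnl2 at -0.19 (SE 0.158; 0.961) and Ifnb1 at 0.04 (SE 0.114). Of 18 genes of interferon receptors, JAK-STAT signalling and IRF factors 4 lay above 0 and 14 below (median -0.06). The 2 with the smallest p were among the 4: Stat2, a subunit of the factor ISGF3, at 0.44 (SE 0.114; limma adjusted p = 0.471) and Usp18, which removes ISG15, at 0.43 (SE 0.0984; 0.392). None of these lists had a gene past limma in either fit.

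Markers of other cells are set beside the family. Ly6C-high monocyte markers averaged 9.86 to 10.01 on TRIM33 and 9.71 to 9.85 on WT arrays of the Y set. In the Xist set they averaged 9.28 to 9.42 on TRIM33 and 9.23 to 9.33 on WT arrays, with 0 of 11 past limma. Over all 12 arrays Ly6c1 averaged 3.17 and the other measured genes of that list 8.35 to 12.3. Ly6C-low markers averaged 7.85 to 8.60 on TRIM33 and 8.34 to 8.65 on WT arrays of the Y set. In the Xist set these read 6.62 to 7.07 on TRIM33 and 6.80 to 6.88 on WT arrays. Granule and precursor markers averaged 4.81 to 5.43 over the Y set and 8.28 to 8.55 over the Xist set. Mpo averaged 4.98 on Y set arrays and 11.3 on Xist set arrays, and Elane 4.41 on Y set arrays and 10.5 on Xist set arrays. Of that list 6 of 8 genes were lower in the Y set without overlap and 1 was higher. The precursor gene Kit differed by -0.37 between sets, and Flt3, which is also in the dendritic list, by 1.48. In their medians Ly6C-low markers ran with the family between sets (1.24 higher in the Y set), as did dendritic cell markers (1.48). In either list 7 of 11 genes stood higher in the Y set without overlap (6.59% of all genes). Spn ran the other way (-0.47), and the dendritic genes Zbtb46, Xcr1 and Clec9a differed by -0.03, 0.04 and -0.08. The MHC class II genes H2-Aa, H2-Ab1 and H2-Eb1 of the dendritic list stood 2.83 to 3.38 higher in the Y set. Between genotypes dendritic cell markers lay below 0 in 11 of 11 genes (median -0.27) and Ly6C-low markers in 8 of 11 (median -0.09). Neutrophil markers lay above 0 in 8 of 12 genes (median 0.12) and averaged 5.505 to 6.73 on TRIM33 arrays and 5.67 to 5.69 on WT arrays of the Y set. Their part in the family's differences was not tested.

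Plasmacytoid dendritic cell markers, the cells known for making most interferon, lay above 0 in 2 of 7 genes (median -0.01), and their defining Siglech averaged 4.64 on Y set arrays and 4.27 on Xist set arrays. B cell markers lay above 0 in 2 of 6 genes (median -0.03), T cell markers in 2 of 7 (-0.16) and natural killer markers in 0 of 6 (-0.22). Erythroid and platelet markers did so in 2 of 5 (-0.03), granule and precursor markers in 6 of 8 (0.11) and cell cycle markers in 13 of 18 (0.06). Levels within a marker list were mixed: over all 12 arrays Cd79a averaged 3.73 but the B cell genes Ighm and Cd79b 10.3 and 7.84, and Ly6g averaged 3.29 but the neutrophil genes Mmp8, S100a9, S100a8 and Csf3r 10.1, 9.83, 9.43 and 9.19. Cd3e averaged 4.05 on Y set arrays and 3.28 on Xist set arrays, and Ncr1 3.36 on Y set arrays and 3.30 on Xist set arrays. The part of such transcripts in the p200 values was not tested. No gene of these marker lists passed limma in either fit. Trim33 was the 1 gene of all 20 lists that did, while its paralogs Trim24, Trim28 and Trim66 did not.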

How the data were processed

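Gene expression of sorted blood monocytes was measured on 12 single-colour arrays from 900 pg of amplified RNA each. The table the authors deposited holds log2 values, 1 per Entrez gene feature and array; per the submitters' processing notes the authors used RMA and Partek, with versions, chip definition and build not given in the sources used here. RMA equalises distributions between arrays, so a shift shared by most genes is hidden. The labels' treatment text describes sorted CD4 T cells; the source names and the series design, which give monocytes, were followed.

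Of the features, 23281 had 1 symbol, 1198 none; the brighter feature of a repeated symbol was kept, which left 23279 genes. RefSeq (GRCm38.p6) gave symbols, gene order and promoters. Genotype was tested with lmFit and eBayes (limma 3.58.1, R 4.3.3), Benjamini-Hochberg threshold 0.05, without and with the array set (average-linkage clustering of 1 minus r) as a block, within sets and as an interaction. Arrays carry no counting depth, so their number limits the precision.

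The members and the 20 gene lists were chosen with earlier results of these data known. Named were the members, the other cluster genes, Trim33, the 2 genes of smallest p in each pathway list (up to 3 where any passed), the 5 nearest genes on each side, and the 8 most and 3 least similar genes. Pycard, Casp1, Il18, Il1b, Cgas, Sting1, Ifnb1 and the single genes of the cell marker lists were named after their values were seen. Of 255 listed genes 231 were measured under the listed symbol. Promoter windows were compared by local alignment. Figures were drawn with matplotlib 3.10.9. Each array left out in turn, other normalizations, filters, variance models and thresholds were tried.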

Additional observations from a re-analysis of the deposited data

How the results depend on the processing

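The count of members past the threshold stayed at 0 in all 48 alternative fits, with and without the array set as a block, and the median difference over the 7 genes stayed between 0.17 and 0.38. Aim2, Ifi204, Ifi208, Ifi209 and Mndal kept a difference above 0 in all of them; Ifi209 came nearest to the threshold, at an adjusted p of 0.083 in the lowest. Ifi203 and Ifi205 did not keep their sign. With 1 array left out, Ifi203 ranged from -0.073 to 0.18 without the block and from -0.0049 to 0.12 with it, and Ifi205 from -0.26 to 0.36 and from -0.072 to 0.31. Without the block and with 1 array left out, Ifi208 ranged from 0.21 (without TRIM33 replicate 3) to 1.04 (without TRIM33 replicate 4), and Ifi204 from 0.17 (without TRIM33 replicate 1) to 0.58 (without TRIM33 replicate 4). Mndal was 0.099 without TRIM33 replicate 1 and 0.098 without WT replicate 1. Ifi205 was -0.14 in the Y set alone. Among the 4 mixes, Ifi203 was -0.0058 and Ifi205 -0.30, both with the mix number as a replicate block and without it; leaving the number out was an alternative chosen after seeing the data. With the block and 1 array left out (counts also chosen after seeing the data), 6 to 7 of the 7 genes lay above 0 and 2 to 3 had an unadjusted p under 0.05, against 1.92% to 3.05% of all genes.

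Over all genes 5 passed without the block, against 9 with it, 3 without moderation, 0 without the mixes, 8 in the Y set alone, 3 in the Xist set alone and 10 in the 4 mixes with the replicate block. Same-numbered mixes had a correlation of 0.12 in their deviations, and the labels do not say that the number pairs them. With 1 array left out the counts were 5 to 9 without the block and 9 to 15 with it, the highest in both cases without TRIM33 replicate 4 (9 and 15). Of the 8 genes most like the members, 4 were shared with Spearman's rho and 5 without the filter. The cause of these shifts was not tested.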

Other observations

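Within the Y set, Aim2 and Ifi205 sorted arrays by preparation in opposite ways, a description made after the values were seen. The share of all genes that separate these arrays by preparation was not counted, so nothing particular to these genes can be read from it. TRIM33 replicate 1 and WT replicate 4, the 2 arrays of that set whose titles do not call them mixes, read 7.97 and 7.57 for Aim2, below the 8.21 to 8.57 of the 4 mixes. For Ifi205 the same 2 arrays read 10.02 and 9.83, above the 8.31 to 9.66 of the mixes. For Ifi203, Ifi204, Ifi208, Ifi209 and Mndal at least 1 of the 2 arrays fell within the range of the mixes or on the other side of it from its partner.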
